A study of Homo sapiens with 6 samples.

Results

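The genes described here are PIM1, PIM2, PIM3, OSM, ID1 and BCL6, which have all been described as targets of the transcription factor STAT5, in K562 cells with and without knockdown of lncRNA-IUR1. They were taken by symbol after the Entrez identifiers of the deposited expression table had been matched to RefSeq symbols, and 5 of the 6 genes were among the 12486 genes of that table. OSM, which encodes the cytokine oncostatin M, was not among them and was not analysed here. RNA sequencing had been performed on K562, a cell line from human chronic myeloid leukemia in which Bcr-Abl is active, stably expressing a control shRNA against luciferase (sh-luc, 3 libraries) or an shRNA against lncRNA-IUR1 (sh-IUR1, 3 libraries). Both groups therefore carry an shRNA vector, the labels name no imatinib treatment, and the methods list 1 human shRNA sequence against the target and no number of clones. In the labels the target is named lncRNA-up91, and in each group one library has no number and the others are r1 and r2. The study asked through which genes loss of lncRNA-IUR1 acts in Abl-transformed cells, with STAT5 signaling as one of the routes it followed.

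In Bcr-Abl positive cells STAT5 is held in its phosphorylated, active form by the kinase without a cytokine signal from outside, and it binds DNA as a dimer at a short palindrome. PIM1, PIM2 and PIM3 are serine/threonine kinases that need no activation step after synthesis, so the amount of kinase follows the amount of its mRNA and the stability of the protein, and they favour survival and protein synthesis in blood cancers. ID1 is a helix-loop-helix protein without a DNA-binding region that captures E proteins and so holds back differentiation, and BCL6 is a transcriptional repressor known from germinal center B cells and from leukemia cells under kinase inhibition.

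Expression was given in FPKM (fragments scaled by transcript length and library size), a unit in which genes can be compared with each other. Listed FPKM summed to between 579820 and 606240 per library, and the sequencing depth behind them is unknown. At the best depth tried, 36.5% of 203 low values came out within 0.1 of a whole fragment, where 20.0% is what that tolerance alone gives. The 20.0% holds for a depth fixed beforehand, while the best of many depths was kept, which by itself raises the share. That search used 1 depth for all libraries together, so it could not find depths that differ between them. All 12 genes taken as K562 markers were listed, among them the fetal globin gene HBG2 at 2559 to 3565 FPKM and GATA1 at 182 to 200.4 FPKM. Of the T cell, B cell and fibroblast markers, those listed summed to at most 5.08, 1.36 and 0.37 FPKM in any library, and the myeloid and epithelial genes LYZ and EPCAM were listed at 107 to 119 FPKM and at 37.9 to 47.6 FPKM in both groups. The unnumbered sh-luc library stood apart from the rest, with a mean log2(FPKM + 1) of 5.25 over 22 integrated stress response genes where the other 5 libraries had 5.91 to 6.36. Log2 fold changes of the 5 genes are therefore also given without that library. The level of lncRNA-IUR1 itself, and with it the strength of the knockdown, was not analysed here. The p-values measure the spread between 3 independent groups of cells per arm.

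The positions of the 5 genes in GRCh38 were taken from RefSeq. PIM1 (gene identifier 5292) lies on chromosome 6 from 37170152 to 37175428, PIM2 (11040) on chromosome X from 48913182 to 48919024, and PIM3 (415116) on chromosome 22 from 49960772 to 49964072. ID1 (3397) lies on chromosome 20 from 31605289 to 31606510, and BCL6 (604) on chromosome 3 from 187721377 to 187745468. The canonical GENCODE transcripts have 6 exons in each of the PIM genes, 2 in ID1 and 10 in BCL6. The transcripts of PIM1, PIM2, PIM3 and ID1 shared 0 stretches of 50 bases with the transcripts of any other gene, so the family members are distinct at that length. In BCL6, 135 of 3257 such stretches (4.14%) also occurred in transcripts of 2 other genes, one of them a lncRNA gene on the opposite strand. Since the counting is not stated to use strand, BCL6 reads and reads of these genes cannot be told apart there.

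The palindrome that STAT5 recognizes, TTCNNNGAA, was searched in the RefSeq window from 250 bases before to 50 bases after the start of each gene, and it reads the same on both strands. It occurred in 7.66% of all 35116 windows. PIM1, PIM2, PIM3 and ID1 had 0 matches in their windows, as did most windows, and sites outside the windows were not searched. The window at the first start site of BCL6, chr3:187745419-187745718 on the minus strand, had 4 matches, which only 7 of the 35116 windows (0.0199%) reached, and the window at its second start site had 0. The 4 sites are printed because BCL6 was the only one of the 5 genes with a match. Each is read on the minus strand with the palindrome in capitals, and the number in the name is the position of its first base relative to the start site.
BCL6 site at -28, chr3:187745478-187745506: gaagctcaaaTTCCGAGAAttgagctctg
BCL6 site at -5, chr3:187745455-187745483: gctctgttgaTTCTTAGAActggggttct
BCL6 site at 11, chr3:187745440-187745468: agaactggggTTCTTAGAAgtggtgatgc
BCL6 site at 37, chr3:187745419-187745442: tgcaagaagtTTCTAGGAAaggcc

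The form of the palindrome with a spacer of 4 bases was found in none of the 6 windows of the 5 genes and in 6.44% of all windows, and the E-box CACGTG in none of the 6 and in 7.26% of all. GGCGCC, a GC-rich element described for SMAD proteins, occurred 2 times in the window of PIM3 and in none of the others, and 19.2% of all windows held it. For comparison with the BCL6 sites, the 100 bases just before the start of PIM1 and ID1, the genes that varied most between libraries below, are shown, with no part in capitals because none of these 4 elements occurs in them. Over the 250 bases before the start, the G and C content was 79.6% for PIM1 and 66.0% for ID1, against 54.4% for BCL6. A match is a string of letters in one window and says nothing of occupancy in these cells.
PIM1 promoter, chr6:37170052-37170151, plus strand: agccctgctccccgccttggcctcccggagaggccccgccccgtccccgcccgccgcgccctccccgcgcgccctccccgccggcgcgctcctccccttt
ID1 promoter, chr20:31605189-31605288, plus strand: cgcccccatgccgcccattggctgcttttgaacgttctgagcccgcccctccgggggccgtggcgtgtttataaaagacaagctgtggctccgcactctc

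To find out whether these STAT5 targets differed after loss of lncRNA-IUR1, sh-IUR1 libraries were compared with sh-luc libraries by limma on log2(FPKM + 1) over the 12276 genes whose mean reached 0.1 FPKM, and p-values were adjusted by Benjamini-Hochberg over all of them. All 5 genes passed that filter, and 0 of them had an adjusted p-value under 0.05, as was the case for every gene tested (0.0% of 12276). Before adjustment 325 genes (2.65%) had a p-value under 0.05, and 0 of the 5 were among them. The libraries of the groups overlapped for each of the 5 genes, while 7.07% of the genes tested showed no overlap (4.04% with every sh-IUR1 library higher and 3.03% with every one lower). PIM1 and BCL6 had higher means in sh-IUR1, ID1 had a lower mean, and PIM2 and PIM3 differed by less than 2% between the group means. With 3 libraries against 3, an exact permutation test cannot give a p-value below 0.1.

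**Figure D1:**
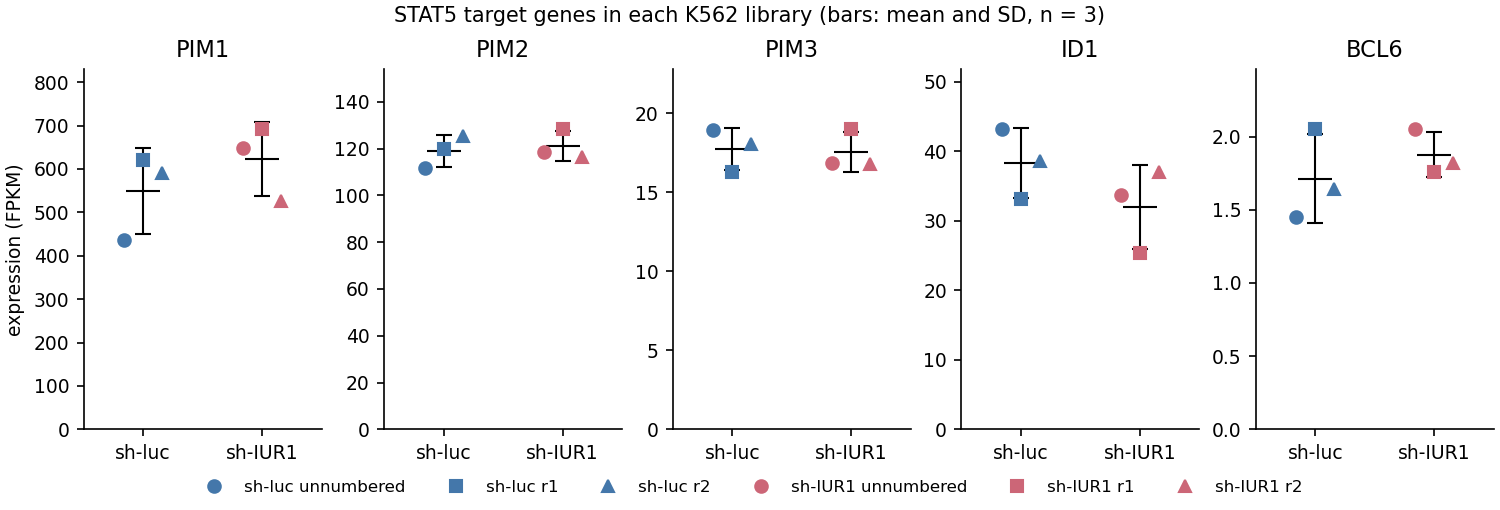
Expression (FPKM, linear axes from 0) of PIM1, PIM2, PIM3, ID1 and BCL6 in each sh-luc (blue) and sh-IUR1 (red) library, with symbols for the unnumbered, r1 and r2 libraries and bars for the mean and SD (n = 3). The groups overlap in every panel, and the unnumbered sh-luc library is the lowest for PIM1 (436 FPKM) and the highest for ID1 (43.2 FPKM).

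PIM1 was the most abundant of the 5 genes. It was expressed at 436, 620.5 and 591 FPKM in sh-luc and at 648, 692 and 527 FPKM in sh-IUR1, values being given here and below in the order unnumbered, r1, r2. The unnumbered and r1 libraries of sh-IUR1 were thus above every control, but r2 was below 2 of the 3 controls. The mean was 549 ± 99.1 FPKM in sh-luc and 622 ± 85.3 FPKM in sh-IUR1 (SD, n = 3 each), a ratio of 1.13 (two-sided exact permutation test, p = 0.4). The log2 fold change was 0.19 (standard error 0.14, 95% interval -0.12 to 0.49, limma adjusted p = 0.930). Within the controls alone PIM1 was 1.42-fold and 1.36-fold higher in r1 and r2 than in the unnumbered library, which is more than the ratio between the groups. Without the unnumbered sh-luc library the log2 fold change of PIM1 was 0.029 (95% interval -0.18 to 0.24).

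PIM2, the family member most tied to lymphoid and myeloma cells, was expressed at 112, 120 and 125 FPKM in sh-luc and at 119, 128 and 116 FPKM in sh-IUR1 libraries. Its 6 values lay within a factor of 1.15, and the groups were interleaved. The means were 119 ± 6.69 and 121 ± 6.31 FPKM (SD, n = 3), with a log2 fold change of 0.026 (standard error 0.064, 95% interval -0.12 to 0.17, limma adjusted p = 0.960), and of -0.017 without the unnumbered sh-luc library. That interval was the narrowest of the 5 genes. The standard deviation of log2(FPKM + 1) over the 6 libraries was 0.071 for PIM2, and 24.9% of the genes tested had a smaller one. For PIM1 that standard deviation was 0.24, and 96.1% of the genes tested had a smaller one.

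PIM3, which was first described in neural and epithelial tissue, was the least abundant of the kinases, at 18.93, 16.30 and 18.03 FPKM in sh-luc and at 16.88, 18.99 and 16.79 FPKM in sh-IUR1. The highest and the lowest value were an sh-IUR1 and an sh-luc library, and the next highest was the unnumbered sh-luc library. The log2 fold change was -0.015 (standard error 0.081, 95% interval -0.20 to 0.17, limma adjusted p = 0.977), and 0.030 without the unnumbered sh-luc library. The PIM kinases did not put the libraries in the same order. The r1 library of sh-IUR1 was the highest of the 6 for each of them, but the unnumbered sh-luc library, lowest for PIM1 and PIM2, was nearly as high as sh-IUR1 r1 for PIM3. Pearson's r of log2(FPKM + 1) over the 6 libraries was 0.82 for PIM1 with PIM2. It was -0.22 for PIM1 with PIM3 and 0.19 for PIM2 with PIM3. These values of r were not tested, and PIM2 and PIM3 varied little, within factors of 1.15 and 1.17.

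The 3 kinase genes together amounted to 567, 756 and 734 FPKM in sh-luc and to 783, 839 and 660 FPKM in sh-IUR1 libraries. PIM1 made up 76.9 to 82.7% of this sum, PIM2 15.1 to 19.7% and PIM3 2.15 to 3.34%. The share of PIM1 was 79.8 ± 2.62% in sh-luc and 81.7 ± 1.59% in sh-IUR1 (SD, n = 3, two-sided exact permutation test, p = 0.4). The ratio of PIM1 to PIM2 was lowest in the unnumbered sh-luc library, at 3.90, and highest in the unnumbered sh-IUR1 library, at 5.46. Over the groups this ratio was 4.60 ± 0.653 and 5.13 ± 0.521 (SD, n = 3, exact permutation test, p = 0.3). When the unnumbered control was omitted, the sh-luc means were 81.3% for the share and 4.95 for the ratio, beside 81.7% and 5.13 in sh-IUR1.

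ID1 had the log2 fold change farthest from 0 among the 5 genes. It was expressed at 43.2, 33.1 and 38.5 FPKM in sh-luc and at 33.6, 25.3 and 37.0 FPKM in sh-IUR1 libraries. The sh-IUR1 r1 library was the lowest and the unnumbered sh-luc library the highest, and the other 4 lay between them in mixed order. The mean was 38.3 ± 5.04 FPKM in sh-luc and 32.0 ± 6.03 FPKM in sh-IUR1 (SD, n = 3), a ratio of 0.836 (two-sided exact permutation test, p = 0.3). The log2 fold change was -0.26 (standard error 0.14, 95% interval -0.56 to 0.042), with limma p-values of 0.0837 before and 0.930 after adjustment. It was -0.11 without sh-IUR1 r1 and -0.17 without the unnumbered sh-luc library. Omitting sh-luc r1 took the unadjusted limma p of ID1 to 0.0339, and omitting sh-IUR1 r2 took it to 0.0240, with adjusted values of 0.667 and 0.729. As for PIM1, the spread over libraries was wide, with a standard deviation of 0.25 on the log2 scale that exceeded those of 96.7% of the genes tested.

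BCL6 was expressed at the lowest level of the 5 genes, at 1.45, 2.05 and 1.64 FPKM in sh-luc and at 2.05, 1.76 and 1.82 FPKM in sh-IUR1 libraries. The highest value was shared by a control and a knockdown library. The means were 1.71 ± 0.307 and 1.88 ± 0.153 FPKM (SD, n = 3), a ratio of 1.10 (two-sided exact permutation test, p = 0.5). The log2 fold change was 0.089 (standard error 0.098, 95% interval -0.13 to 0.31, limma adjusted p = 0.930), on a scale that understates changes of a gene as low as this. It was 0.018 without the unnumbered sh-luc library and 0.18 without sh-luc r1.

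**Figure D2:**
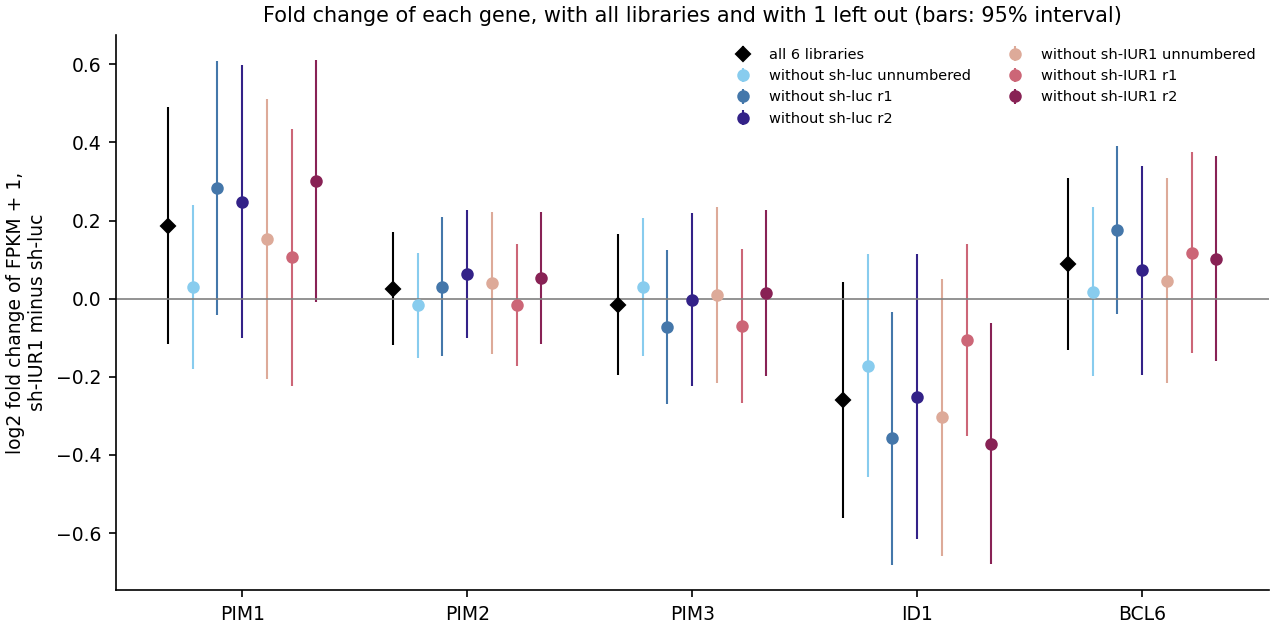
Log2 fold change of FPKM + 1 (sh-IUR1 minus sh-luc) of each gene from limma with all 6 libraries (black diamonds) and from the 6 fits that omit 1 library (colored circles), with 95% intervals. The value of PIM1 is 0.19 with all libraries and 0.029 without the unnumbered sh-luc library, ID1 stays below 0 in all 7 fits, and PIM2 and PIM3 lie on both sides of 0.

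The order of the levels was the same in all 6 libraries, with PIM1 above PIM2, followed by ID1, PIM3 and BCL6, and no neighbours in that order overlapped. PIM1 exceeded PIM2 by 3.90-fold to 5.46-fold within a library. ID1 exceeded PIM3 by 1.33-fold to 2.28-fold, the closest pair, and came nearest to it in sh-IUR1 r1. PIM3 exceeded BCL6 by 7.95-fold to 13.1-fold.

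The spread of PIM1 between libraries went with that of the stress genes. The 6 libraries had the same order for PIM1 as for the mean of the 22 integrated stress response genes, which include the transcription factors ATF4, ATF3 and DDIT3. The unnumbered sh-luc library was lowest, followed by sh-IUR1 r2, sh-luc r2, sh-luc r1, unnumbered sh-IUR1 and sh-IUR1 r1, so that controls and knockdown libraries were mixed along it. Over the 6 libraries Pearson's r was 0.98 (exact permutation p = 0.00139, adjusted p = 0.00694 over the 5 genes) and Spearman's rho was 1.0 (exact permutation p = 0.00278, adjusted p = 0.0139). With the 2 libraries farthest from the median of the stress genes left out (unnumbered sh-luc and sh-IUR1 r1), r was 0.97 over the other 4. Each group holds 3 libraries, too few for a value within a group, and the stress genes were listed with earlier results of these libraries known. The permutation takes every order of the libraries as equally likely, but 3.36% of the other genes compared below had the order of PIM1. The p-values therefore do not set PIM1 apart from those genes.

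ID1 went the other way, with r = -0.82 and rho = -0.89 against the stress genes (exact permutation p = 0.0639 and 0.0333, adjusted p = 0.0799 and 0.0833), which misses the threshold. Without the same 2 libraries its r was -0.83. For PIM2, r was 0.79 and rho 0.77 (exact permutation p = 0.0542 and 0.103, adjusted p = 0.0799 and 0.171), and r was only 0.076 without these 2 libraries, so the relation rests on them. For BCL6, r was 0.76 and rho 0.52 (exact permutation p = 0.0611 and 0.3, adjusted p = 0.0799 and 0.375), with r = 0.74 over the 4 libraries. PIM3 had r = -0.36 and rho = 0.14 (exact permutation p = 0.556 and 0.803, adjusted p = 0.556 and 0.803), and r = -0.34 over the 4 libraries. All 22 stress genes had log2 fold changes above 0, beside 58.0% of all genes, with a median of 0.31, and 0 of them passed the test. The size of these values rested largely on the unnumbered sh-luc library, without which the median was 0.051. In that fit 21 of the 22 were still above 0 and only ATF4, at -0.022, was below. These genes moved together over the libraries, so they are not 22 separate observations. Their mean log2(FPKM + 1) was 5.91 in sh-IUR1 r2, below the 6.19 and 6.03 of sh-luc r1 and r2. The part of the stress response in the values of PIM1 and ID1 was not tested.

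**Figure D3:**
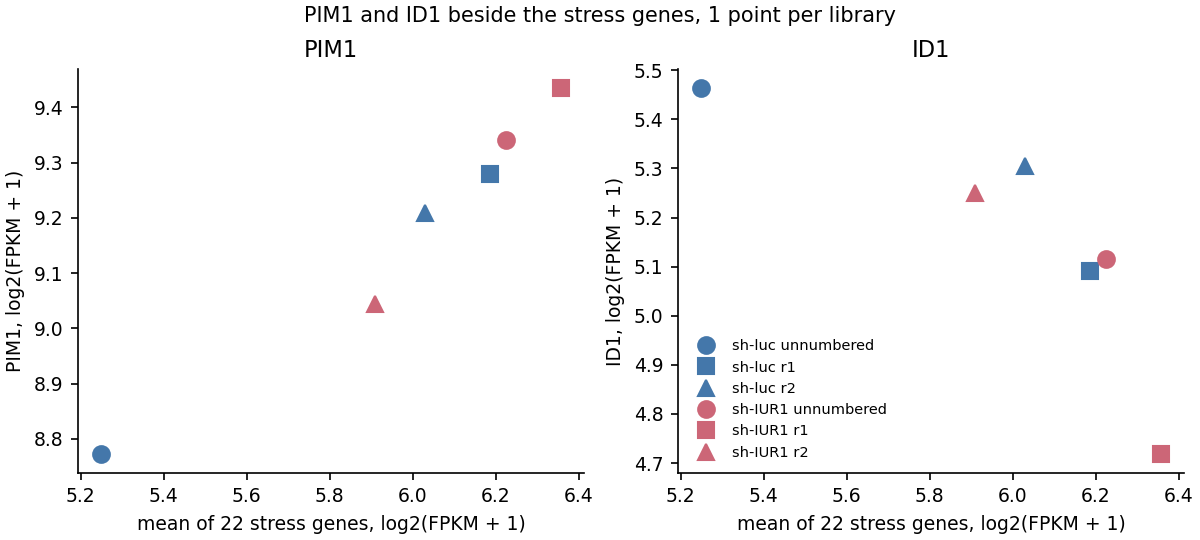
PIM1 (left) and ID1 (right), log2(FPKM + 1), against the mean log2(FPKM + 1) of 22 integrated stress response genes, with 1 point per library in the colors and symbols of its group and number. PIM1 puts the 6 libraries in the same order as the stress genes, from 8.77 to 9.44, ID1 runs from 5.46 to 4.72, and both groups are mixed along the axis.

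Among the 10631 other genes whose mean reached 1 FPKM, 357 (3.36%) put the 6 libraries in the same order as PIM1. In the list of 63 genes around STAT5 that was drawn up for the comparison, this held for 4 of the 53 at that level (7.55%), namely CISH, SOCS2, BCL2 and FOXO3, and in the stress list for 11 of 21 genes (52.4%). The mean of the stress list has that same order. Its share therefore counts genes that follow their own list and adds no separate evidence on PIM1. CISH and SOCS2 are feedback inhibitors that STAT5 itself induces. CISH was expressed at 90.6, 116 and 115 FPKM in sh-luc and at 117, 127 and 106 FPKM in sh-IUR1, and SOCS2 at 137, 197 and 187 FPKM and at 204, 205 and 177 FPKM. They were picked for this order, so their likeness to PIM1 is given by the choice, and without the unnumbered sh-luc library their log2 fold changes of 0.13 and 0.19 were 0.012 and 0.024. Of these 53 genes 25 (47.2%) were lowest in that library, and so were 39.1% of all genes at that level.

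The genes most like each member in pattern were found by Pearson's r of log2(FPKM + 1) over the 6 libraries among 10627 genes, as a description only, since with so few libraries many genes reach high values. They were TNFAIP1, COQ9 and TBC1D22B for PIM1, KLHDC3, FARSA and NFKB1 for PIM2, and COX6A1, PPP1R11 and NQO2 for PIM3. For ID1 they were RALGDS, RRM2 and DDX39A, and for BCL6 EFCAB11, MATCAP2 and SIX4. The first of each had an r between 0.989 and 0.998. The number of genes above 0.95 was 665 for PIM1, 105 for PIM2, 88 for ID1, 41 for BCL6 and 10 for PIM3, so PIM1 followed a pattern that many genes share and PIM3 one that few share.

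The wider set of genes around STAT5 was compared in the same fit. Of the 63 genes listed, 56 were tested and 0 passed. Their median log2 fold change was 0.045, beside 0.019 over all genes tested, and 39 of the 56 (69.6%) were above 0, beside 58.0% of all genes. Without the unnumbered sh-luc library the median of the list was 0.011 and 32 genes were above 0. Groups did not overlap for 5 of the 56 genes (8.93%), beside 7.07% of all, and these were SOCS7, GATA3, LIFR and IL6, all higher in sh-IUR1, and MCL1, lower.

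Upstream of the members, STAT5A was expressed at 132 ± 11.3 FPKM in sh-luc and 137 ± 3.43 FPKM in sh-IUR1, and STAT5B at 56.6 ± 6.996 and 60.9 ± 4.54 FPKM (SD, n = 3), with log2 fold changes of 0.057 and 0.11, and of -0.016 and 0.0071 without the unnumbered sh-luc library. Over the 9 tested genes of the JAK and STAT families, which carry the signal from receptor to promoter, values ran from -0.065 for JAK1 to 0.17 for TYK2 (0.078 without that library). Over the 8 SOCS and CISH genes, which shut the pathway off, values ran from -0.17 for SOCS4 to 0.22 for SOCS1, with 4 on either side of 0. SOCS1 was at 0.13 without the unnumbered sh-luc library. Among 11 other genes described as STAT5 targets values ran from -0.14 for MCL1, a survival protein, to 0.18 for GATA3, the target that the study followed. GATA3 had 0.24, 0.35 and 0.21 FPKM in sh-luc and 0.45, 0.45 and 0.41 FPKM in sh-IUR1, a ratio of means of 1.64, with a limma adjusted p of 0.930. At so low a level the added 1 FPKM compresses the change, and with 0.1 FPKM added in its place the log2 fold change of GATA3 was 0.57. Without the unnumbered sh-luc library, and with 1 FPKM added, the log2 fold change of GATA3 was 0.17. The study reported higher GATA3 in knockdown K562 cells, from its RNA sequencing and by quantitative PCR. By PCR it also reported this in mouse NS2 knockdown cells and in blood and marrow cells of knockout mice. Its result on STAT5 concerned phosphorylation, which the mRNA levels of STAT5A and STAT5B do not show.

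Downstream of the kinases, 9 genes for proteins that PIM kinases are known to phosphorylate ran from -0.12 for the death factor BAD to 0.23 for the transcription factor FOXO3 (0.018 without the unnumbered sh-luc library). Messenger RNA levels do not show phosphorylation. Although OSM itself was not analysed, genes of its receptor and of related cytokines were. All 4 tested were above 0, from 0.078 for OSMR, a receptor subunit for oncostatin M, to 0.27 for IL6, though OSMR was at -0.032 without the unnumbered sh-luc library. LIFR, the receptor of the related cytokine LIF, had 7.30, 7.88 and 7.52 FPKM in sh-luc and 9.19, 8.49 and 8.94 FPKM in sh-IUR1, without overlap, and IL6 had 1.90, 1.91 and 1.82 against 3.10, 2.43 and 1.99 FPKM. Their log2 fold changes of 0.20 and 0.27 had a limma adjusted p of 0.930 each. Without the unnumbered sh-luc library they were 0.18 and 0.28.

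Around ID1, the relatives ID2 and ID3 had log2 fold changes of -0.098 and -0.043, and the E proteins that ID1 binds, TCF3, TCF4 and TCF12, had 0.0055, 0.034 and 0.099. Among 6 tested genes of the BMP signal, a known inducer of ID1, values ran from -0.039 for the inhibitor SMAD6 to 0.20 for the receptor BMPR1A. Without the unnumbered sh-luc library TCF12 was at 0.084 and BMPR1A at 0.19. None of these genes passed the test.

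**Figure D4:**
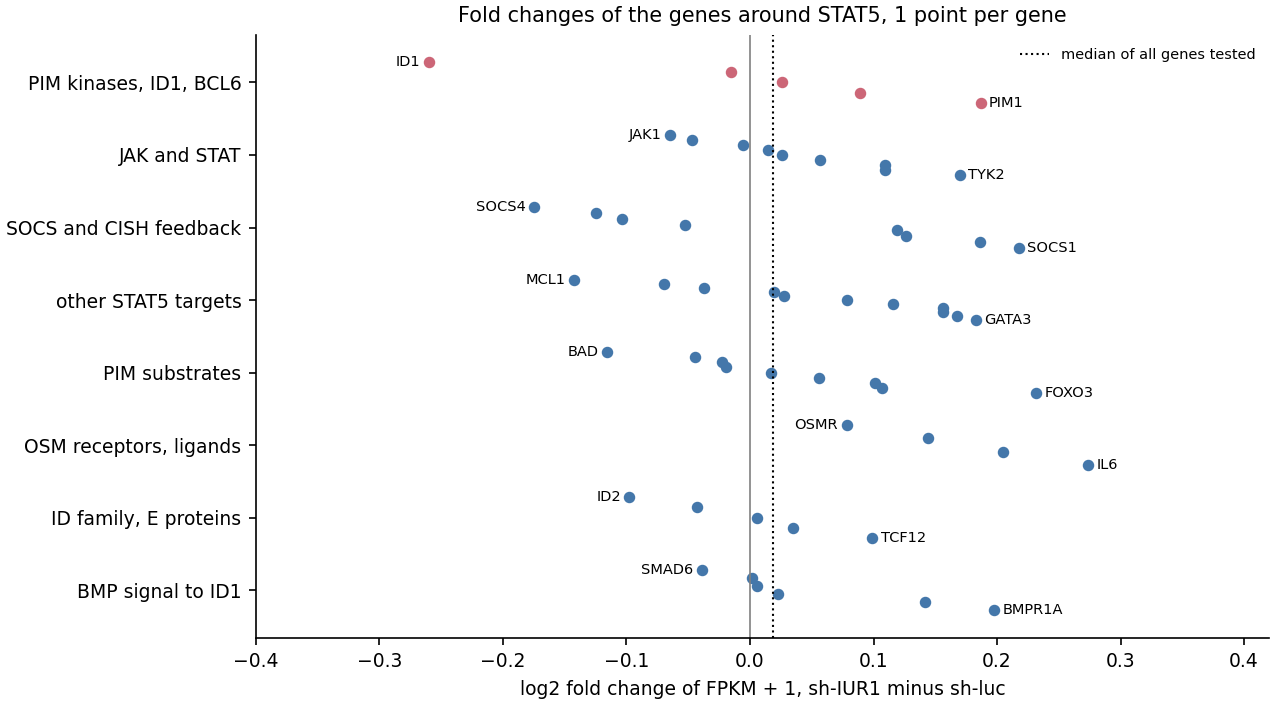
Log2 fold change of FPKM + 1 (sh-IUR1 minus sh-luc) for the 5 genes (red) and the tested genes around STAT5 in 7 groups by role (blue), 1 point per gene, in 1 row per group with the lowest and highest gene of each row named. Points lie between -0.26 (ID1) and 0.27 (IL6), and the dotted line marks the median of all genes tested, 0.019.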

How the data were processed

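Total RNA of 3 sh-luc and 3 sh-IUR1 cultures of K562 cells was sequenced. The authors trimmed and masked the reads, mapped them to hg38 and computed expression with samtools 0.1.19. The aligner and annotation are not given in the sources used here. The deposited values are FPKM with 2 decimals by their column names, a unit the study's methods call RPKM. The table also holds, as deposited, a score (the z-score of each gene's FPKM), a cluster number and a fraction (cluster membership), which were not used. The smallest standard deviation of a listed gene is 0.0501 FPKM, so nearly constant genes are outside every count. RefSeq (GRCh38.p14) gave symbols for 12363 of 12486 genes.

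Values were transformed to log2(FPKM + 1), and limma 3.58.1 (R 4.3.3, eBayes with a trend, group as the only term) was run on genes whose mean reached 0.1 FPKM. The fit was tested on simulated data. One subgroup of the list enters its counts and is otherwise not reported here. Exact permutation tests were two-sided, and 95% intervals come from limma. The members and lists were chosen with earlier results of these data known. Genes named in the text are the members, the extremes of each subgroup of the list, STAT5A, STAT5B, GATA3 and the 3 genes closest to each member in pattern. LIFR, SOCS7, CISH, SOCS2 and BCL2 (for overlap or library order), ID3, TCF3 and TCF4 (relatives of ID1), the stress genes and the markers fall outside that rule and were named after their values were seen. Values of single genes other than the members without the unnumbered sh-luc library were added after seeing the data. Promoter windows are from RefSeq, transcripts from GENCODE release 44. Alternatives changed the scaling (median-ratio or quantile), the pseudocount (0.1), the filter (none, or a mean of 1 FPKM) or the variance model (no trend), added a block for the replicate number, or omitted 1 library at a time. Other steps used scipy 1.17.1, pandas 2.3.3, numpy 2.4.6 and Python 3.11.15, with figures by matplotlib 3.10.9.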

Additional observations from a re-analysis of the deposited data

How the results depend on the processing

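Under each of the 13 alternatives limma called 0 genes at an adjusted p-value of 0.05, with 0 of the 5 members and 0 of the list around STAT5. Of 65 log2 fold changes of members under these alternatives, 60 had the same sign as with all libraries and missed the threshold again, with adjusted p-values of at least 0.667, and 5 changed sign, each when 1 library was left out. Over the 6 fits without 1 library the log2 fold change ran from 0.029 to 0.30 for PIM1, from -0.017 to 0.064 for PIM2, from -0.072 to 0.030 for PIM3, from -0.37 to -0.11 for ID1 and from 0.018 to 0.18 for BCL6. PIM2 was at -0.017 without the unnumbered sh-luc library and at -0.016 without sh-IUR1 r1. PIM3 was at 0.030 without the unnumbered sh-luc library, at 0.011 without the unnumbered sh-IUR1 library and at 0.014 without sh-IUR1 r2. The cause was not tested, beyond the smaller number of libraries. The number of genes with an unadjusted limma p-value under 0.05 was 325 with all libraries, 854 without sh-luc r1, 712 without sh-IUR1 r2 and 156 without the unnumbered sh-IUR1 library.

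In the fit with a replicate block the log2 fold changes of the members were the same, 0 genes had an adjusted p-value under 0.05 and 533 had an unadjusted one under 0.05. ID1 then had a 95% interval from -0.44 to -0.084, and limma's adjusted p was 0.947 and its unadjusted p 0.00764. The labels do not say whether same-numbered libraries belong together. Same-numbered deviations from the group means had correlations of 0.04 (unnumbered), 0.39 (r1) and -0.34 (r2) across genes. With 3 libraries per group these values cannot decide whether the numbers pair the libraries. The unknown depth limits what can be said of BCL6 and GATA3, which had low FPKM.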
